A study of Mus musculus with 81 samples.

Results

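The genes described here lie on the piece of mouse chromosome 17 (Mmu17) that Ts65Dn mice carry in an extra copy beside a longer piece of chromosome 16 (Mmu16). They were chosen by position: all genes of a Gencode GRCm39 annotation on Mmu17 with a start between 3000000 and 9200000, except Tiam2 and Synj2, with a count in at least 1 library of the series. The rule found 77 genes, called members here, among 122 annotated genes of that window and 29631 genes with a count anywhere in the series. Of the 77 members, 35 were protein-coding, 19 were long non-coding RNAs (lncRNAs) and the others were pseudogenes. No expression value entered the choice beyond the presence of 1 count.

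RNA was measured in CA1 pyramidal neurons (CA1 PNs), CA3 pyramidal neurons (CA3 PNs) and dentate gyrus granule cells (DGCs), each cut by laser capture microdissection (LCM) from Nissl-stained sections of frozen brain. All mice were males aged about 6 months, born to Ts65Dn dams and fathers that were F1 hybrids of C57Bl/6J Eicher and C3H/HeSnJ. Ts65Dn trisomic mice (Ts) were compared with disomic littermates (2N). Dams ate chow with choline at 1.1 g/kg (choline normal, ChN) or at 5.0 g/kg (choline supplemented, ChP) through gestation and until weaning, and all offspring ate the control chow afterwards. On ChN there were 6 2N and 5 Ts libraries of CA1 PNs, 6 and 6 of CA3 PNs, and 6 and 6 of DGCs. On ChP there were 7 2N and 9 Ts libraries of CA1 PNs, 7 and 7 of CA3 PNs, and 7 and 9 of DGCs. Most mice gave a library of all 3 populations. The totals of the 81 libraries ran from 358355 to 4744036 expected counts, and 26 to 47 members had a count in a given library. In such captures, fewer cells of a type and less RNA per cell cannot be told apart.

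The extra chromosome of Ts65Dn mice is a small translocation product. Its Mmu16 part holds many orthologs of genes on human chromosome 21, the chromosome that is triplicated in Down syndrome, whereas the proximal Mmu17 part corresponds to human chromosome 6, so none of the members is triplicated in people with Down syndrome. Among them are subunits of general machines of the nucleus, such as Arid1b of the BAF chromatin remodelling complex and Gtf2h5 of the transcription and DNA repair factor TFIIH, mitochondrial proteins such as the pyruvate carrier subunit Mpc1, and signalling enzymes such as the cyclic nucleotide phosphodiesterase Pde10a.

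The sequences before annotated start sites are described next, and which starts the captured neurons use was not measured. They are given from 250 bases before to 30 bases after the start of the canonical transcript, read from GRCm39 with the Gencode vM39 annotation, 5′ to 3′ on the strand of the gene, with GC boxes (GGGCGG on either strand) in capitals. Tulp4, Arid1b and Pde10a are shown because they held the most counts of all members (25107, 35463 and 15134 expected counts over all libraries).

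Tulp4, chr17:6188173-6188452, plus strand: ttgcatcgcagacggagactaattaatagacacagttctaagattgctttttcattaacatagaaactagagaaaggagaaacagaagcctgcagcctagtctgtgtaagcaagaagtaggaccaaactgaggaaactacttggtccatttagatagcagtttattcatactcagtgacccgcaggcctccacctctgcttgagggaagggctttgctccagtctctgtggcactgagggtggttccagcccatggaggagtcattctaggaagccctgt

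Arid1b, chr17:5044638-5044917, plus strand: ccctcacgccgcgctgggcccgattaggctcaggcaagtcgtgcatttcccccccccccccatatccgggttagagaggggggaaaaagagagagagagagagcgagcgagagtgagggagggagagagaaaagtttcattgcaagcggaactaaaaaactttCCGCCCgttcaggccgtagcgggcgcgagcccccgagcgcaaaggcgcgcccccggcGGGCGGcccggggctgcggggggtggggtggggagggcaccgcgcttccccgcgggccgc

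Pde10a, chr17:9020275-9020554, plus strand: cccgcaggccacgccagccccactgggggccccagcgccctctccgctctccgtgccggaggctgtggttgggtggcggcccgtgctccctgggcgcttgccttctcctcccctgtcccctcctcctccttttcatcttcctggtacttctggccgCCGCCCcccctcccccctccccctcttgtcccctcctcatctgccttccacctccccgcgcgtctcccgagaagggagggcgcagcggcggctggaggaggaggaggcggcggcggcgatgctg

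Some members start back to back. Gtf2h5 and Serac1, which were both higher in Ts in every comparison below, start 25 bases apart on opposite strands, and Sft2d1 starts 50 bases from 4930506C21Rik, a lncRNA whose start also lies 57 bases from that of Gm49987. Their shared windows are given on the plus strand, with 30 bases inside each gene.

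Gtf2h5-Serac1, chr17:6130007-6130090, plus strand: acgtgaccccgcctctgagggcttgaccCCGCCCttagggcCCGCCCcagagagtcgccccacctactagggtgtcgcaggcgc

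Sft2d1-4930506C21Rik, chr17:8529855-8529963, plus strand: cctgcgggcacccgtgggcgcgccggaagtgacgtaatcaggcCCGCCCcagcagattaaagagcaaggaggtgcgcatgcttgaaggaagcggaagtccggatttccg

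A GC box was found in 20 of the 35 promoters of protein-coding members (57.1%), against 40.8% of all 21664 promoters of protein-coding genes. The letters TATAAA on either strand were found in 8.6% of them against 12.8% of all, CCAAT in 31.4% against 38.9%, and the ETS letters CCGGAAGT in 2.9% against 4.0%. The median GC content was 58.2% against 53.9% over all promoters. The window of Tulp4, with 46.8% GC, held none of these letters, and annotated starts of this gene other than the canonical one were not searched. These matches describe letters and not bound sites.

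Several libraries stood apart from their group before any gene was tested. For each library, the mean difference of log2(CPM + 1) from the mean of the 2N libraries of the same population and diet was taken over the 21 members that passed the expression filter in all 6 comparisons, over 60 genes of the Mmu16 segment and over 18 genes of the Mmu17 flank just beyond the members. CPM here is the expected count relative to the TMM-scaled library size. The CA1 library of mouse 17-154, labelled 2N on ChN, stood at 0.48 for the members and 0.50 for the Mmu16 genes. These values lie within the ranges of the Ts ChN libraries of CA1 PNs (0.43 to 0.64 and 0.42 to 0.58), while the CA3 and DG libraries of the same mouse stood at 0.03 and 0.08 for the members. The CA3 library of mouse 15-145 carries the label Ts but its other 2 libraries carry 2N. It stood at 0.01 for the members, among the 2N libraries, and was treated as 2N. In the DGCs, mouse 16-273 of 2N ChP stood at -0.55 for the members and at 0.00 for the Mmu16 genes. Its library had the lowest total of the series (358355 expected counts).

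**Figure D1:**
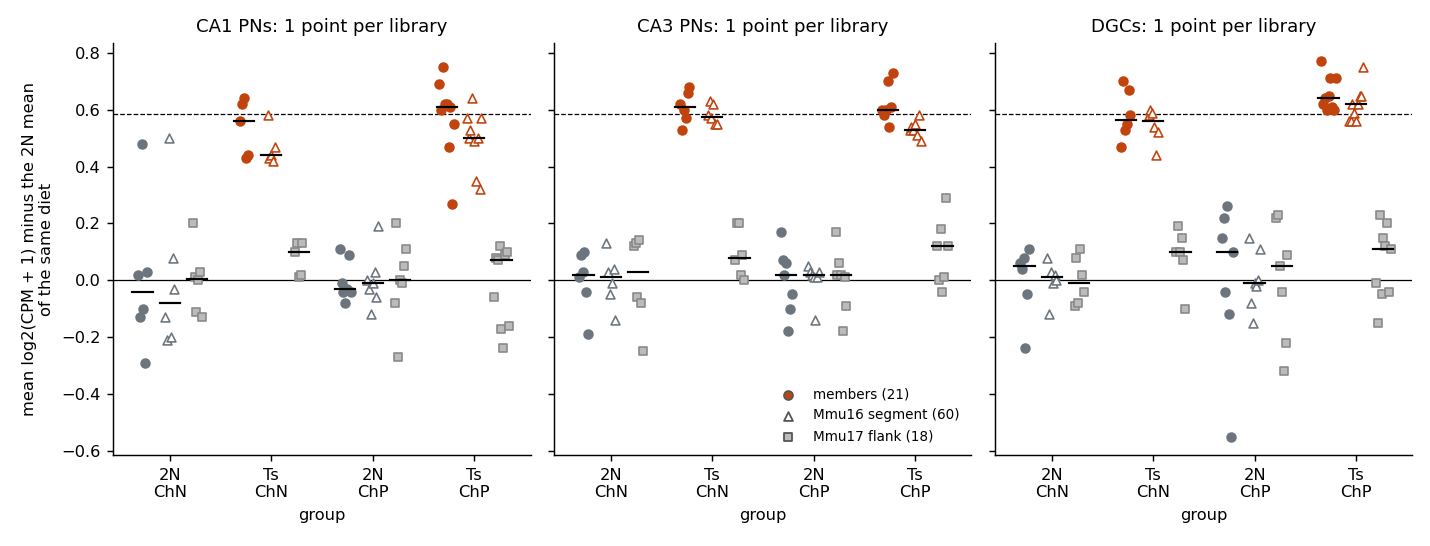
Mean difference of log2(CPM + 1) from the 2N mean of the same diet (y axis) for every library, by population (panels) and group (x axis), over 21 members (circles), 60 genes of the Mmu16 segment (triangles) and 18 genes of the Mmu17 flank (squares). Orange marks Ts and dark grey marks 2N, the squares are light grey in all groups, short lines are group medians and the dashed line is the log2 of 1.5. In CA3 PNs and DGCs all Ts libraries lie above all 2N libraries for the members, whereas 1 library labelled 2N lies among the Ts libraries in CA1 PNs.

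The capture of the populations was checked with marker lists. Granule cell markers summed to 1930 to 2600 CPM in the DG libraries and to at most 158 CPM elsewhere, and CA3 markers summed to 559 to 739 CPM in the CA3 libraries. In the DG libraries the CA3 markers summed to 87.4 to 189 CPM, so the cut of 100 CPM used below was applied to CA1 libraries alone. In the CA1 libraries of mice 17-21, 15-336, 16-272 and 15-199 the CA3 markers were above the CA1 markers (548 against 89.1, 537 against 183, 635 against 66.9 and 459 against 449 CPM), and 10 of the 27 CA1 libraries, mouse 17-154 among them, had CA3 markers above 100 CPM. The counts of members in CA1 PNs are given with and without these libraries.

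In the 21 members the Ts libraries of CA3 PNs stood at 0.53 to 0.73 over both diets and the 2N libraries at -0.19 to 0.17. In the DGCs the corresponding ranges were 0.47 to 0.77 and -0.55 to 0.26. In the CA1 libraries the highest 2N value was that of mouse 17-154 (0.48), and the lowest Ts value was that of mouse 16-272 (0.27), a ChP mouse whose CA3 markers were above its CA1 markers. Without mouse 17-154 the highest 2N value in CA1 PNs was 0.11. The Mmu16 genes of the same libraries stood at 0.32 to 0.75 in the Ts groups, and the flank genes at -0.24 to 0.29.

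Most tested members were higher in Ts in CA3 PNs and DGCs on both diets. In CA1 PNs most were not called, although 21 of 23 LFCs on ChN and 31 of 33 on ChP were positive. The median fold of the tested members was 1.31 in CA1 PNs on ChN and 1.45 to 1.56 in the other 5 comparisons, where 3 copies against 2 would give 1.5 in proportion. A member was tested when at least 10 of the compared libraries exceeded 0.1 CPM. Groups had at most 9 libraries, so at least 1 library of the other group had to pass as well. In all, 36 members were tested in at least 1 of the 6 comparisons, 21 of them in all 6, and 41 in none. DEGs are genes with an unadjusted p under 0.05 by the edgeR quasi-likelihood test, and adjusted p-values are over all genes tested. In CA3 PNs on ChN, 23 of 28 tested members were higher in Ts (82.1%, against 4.9% of all genes), with 8 passing an adjusted p under 0.05 (against 0.528% of all genes higher at that threshold) and a median log2 fold change (LFC) of 0.62. In DGCs on ChN, 17 of 28 were higher (60.7%, against 4.55% of all genes), with 8 passing the adjusted threshold (against 0.439%) and a median LFC of 0.64. In CA1 PNs on ChN, 8 of 23 were higher (34.8%, against 1.78% of all genes), with none passing the adjusted threshold (against 0.00814%) by edgeR, DESeq2 or limma-voom and a median LFC of 0.39.

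Without the CA1 library of mouse 17-154, 12 of the same 23 members were higher in CA1 PNs on ChN, 1 passed the adjusted threshold and the median LFC was 0.58. Leaving out the CA1 libraries with CA3 markers above 100 CPM gave 9 higher members, 2 of them past the adjusted threshold, and a median of 0.54. Leaving out only those with CA3 markers above CA1 markers gave 7 and a median of 0.32. The call of Sft2d1 was lost in all 3 fits and that of Tmem242 without the libraries above 100 CPM. Arid1b, Mpc1 and Rps6ka2 were called without mouse 17-154 and without the libraries above 100 CPM, and Cep43 and Gm21926 without mouse 17-154. Tulp4 passed the adjusted threshold without mouse 17-154 (0.87 ± 0.13), and Tulp4 (0.77 ± 0.12) and Scaf8 (0.70 ± 0.15) did without the libraries above 100 CPM. With the CA3 library of mouse 15-145 under its own label, 17 of 28 members were higher in CA3 PNs on ChN, 1 passed the adjusted threshold and the median LFC was 0.53.

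On ChP, 15 of 33 tested members were higher in CA1 PNs (45.5%, against 2.14% of all genes), 18 of 30 in CA3 PNs (60%, against 2.67%) and 18 of 31 in DGCs (58.1%, against 3.95%). The 33 and the 15 in CA1 PNs include Rnaset2a, which passed the filter through the Ts group and is not read as a difference. The median LFCs were 0.58, 0.59 and 0.54, and 1, 5 and 7 members passed the adjusted threshold (against 0.049%, 0.235% and 0.36% of all genes). Without the CA1 libraries with CA3 markers above CA1 markers, 14 members were higher in CA1 PNs on ChP and 5 passed the adjusted threshold, and without those with CA3 markers above 100 CPM these counts were 13 and 5. Fndc1 was added in both fits and Mpc1 was lost. Rnaset2a was lost in the former, and Gm21926 and Serac1 in the latter. The median LFC of all genes tested lay within 0.02 of 0 in each comparison. Of the 36 members tested in at least 1 comparison, 27 were higher in at least 1, Rnaset2a among them. Of the same members 19 were higher in at least 3, and Tulp4, Gtf2h5, Scaf8 and Serac1 in all 6. The shares of all genes called in as many of the 6 comparisons were not taken. A single member, Tmem181c-ps, was lower in any comparison, in CA1 PNs on ChN. Of all genes, 1.99%, 4.3% and 3.96% were lower in CA1 PNs, CA3 PNs and DGCs on ChN, and 1.46%, 2.32% and 3.65% on ChP. Every Ts library lay above every 2N library for 2, 9 and 6 members in CA1 PNs, CA3 PNs and DGCs on ChN (against 0.309%, 0.61% and 0.454% of all genes) and for 2, 6 and 4 on ChP (against 0.0909%, 0.292% and 0.233%). Without the DG library of mouse 16-273, 15 of 30 tested members were higher in DGCs on ChP.

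Over the 6 comparisons together, 99 of 173 tests of members were higher in Ts (57.2%, against 3.34% of all genes) and 1 was lower (against 2.95%). The 99 include the call of Rnaset2a. The populations share mice, so the tests of different populations are not independent. On the Mmu16 segment 274 of 407 tests were higher (67.3%) and none was lower at an unadjusted p under 0.05 by edgeR. On the flank 5 of 140 tests were higher (3.57%) and 3 were lower (2.14%). Of these 140 tests 2 passed the adjusted threshold, both of Gm34567, which was higher in CA3 PNs on ChN and in DGCs on ChP. The adjusted threshold was passed by 29 of 173 tests of members and by 274 of 81682 tests of all genes. The 95% confidence interval of the LFC held 0.585, the log2 of 1.5, on ChN for 20 of 23 members (CA1 PNs), 25 of 28 (CA3 PNs) and 27 of 28 (DGCs), and on ChP for 31 of 33, 29 of 30 and 29 of 31. Some of these intervals were wide and also held 0, as for Snx9 (-1.06 to 1.0) and Gm2885 (-1.13 to 1.47) in CA1 PNs on ChN. Such intervals do not tell the 2 values apart, and the share over all genes was not taken. Among members with a mean of at least 10 CPM, 17 of 18 were higher in CA3 PNs on ChN, against 6 of 10 below that level. In DGCs on ChN the corresponding counts were 15 of 17 and 2 of 11, and in CA1 PNs on ChN 6 of 16 and 2 of 7.

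Tulp4, a protein of the tubby-like family, was listed together with 4 members that have roles in transcription and RNA. These are Arid1b, Scaf8, which binds the C-terminal domain of RNA polymerase II, Gtf2h5, the smallest TFIIH subunit, and Tfb1m, which methylates mitochondrial ribosomal RNA. In each of the 6 comparisons 4 of the 5 listed members, Tulp4 among them, were higher in Ts. Over the 6 comparisons together, 57.2% of the tests of all members and 3.34% of those of all genes were higher.

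Tulp4 was the member with the smallest p in both DGC comparisons. In DGCs on ChN it had 230 to 294 CPM (median 275) in 2N and 397 to 489 (median 433) in Ts, and on ChP 247 to 282 (median 272) and 388 to 457 (median 437). The groups did not overlap on either diet. The LFC was 0.69 ± 0.07 (SE) on ChN (adjusted p = 7.07e-10) and 0.68 ± 0.07 on ChP (adjusted p = 5.46e-12).

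In CA3 PNs Tulp4 had 165 to 223 CPM (median 194) in 2N ChN and 276 to 320 (median 295) in Ts ChN, with an LFC of 0.64 ± 0.08. On ChP the ranges were 152 to 223 (median 182) and 307 to 364 (median 325), with an LFC of 0.83 ± 0.08. Neither pair of groups overlapped. The interval of the LFC on ChP, 0.67 to 0.98, lay above 0.585.

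The 5 Ts libraries of CA1 PNs on ChN had 166, 170, 176, 197 and 222 CPM of Tulp4, and the 2N libraries had 92.7 to 176 (median 102). The single 2N library above 110 was that of mouse 17-154, and the LFC was 0.68 ± 0.16 (adjusted p = 0.97). On ChP the 2N libraries had 78.3 to 106 and the Ts libraries 146 to 216, with an LFC of 0.86 ± 0.11 (adjusted p = 0.000254). This was the only member past the adjusted threshold in CA1 PNs on ChP with all libraries in the fit. Of 50-base windows of Tulp4 transcripts, 19.7% also occur in transcripts of other genes, with 15.3% in its pseudogene copy Gm2792, which had a count in 8 libraries.

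Arid1b was higher in Ts in 5 of 6 comparisons and had the highest counts of all members. In CA3 PNs on ChN it had 261 to 314 CPM (median 290) in 2N and 384 to 472 (median 431) in Ts, with no overlap and an LFC of 0.58 ± 0.07 (adjusted p = 1.61e-07). On ChP the ranges were 252 to 305 and 372 to 459, again with no overlap, and the LFC was 0.63 ± 0.07. In DGCs the LFC was 0.44 ± 0.07 on ChN and 0.47 ± 0.07 on ChP, with no overlap on either diet.

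Arid1b in CA1 PNs on ChN had 342, 359, 392, 417 and 419 CPM in Ts and 209 to 443 (median 308) in 2N. No Ts library lay above the highest 2N library, and the LFC of 0.28 ± 0.15 did not reach the threshold of a DEG (adjusted p = 1.0). Its interval, -0.03 to 0.58, lay below 0.585. Without mouse 17-154 the LFC was 0.41, past the threshold of a DEG but not past the adjusted one (adjusted p = 1.0). Without the libraries with CA3 markers above CA1 markers it was 0.20 and passed neither (adjusted p = 0.979), and without those with CA3 markers above 100 CPM it was 0.36 and a DEG (adjusted p = 0.165). On ChP, 8 of 9 Ts libraries lay above the highest 2N library and the LFC was 0.42 ± 0.10.

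Of 30 other subunits of BAF-type complexes, 29 or 30 were tested in each comparison, and over the 6 comparisons 0 of 179 tests were higher and 8 were lower (4.47%) by edgeR at an unadjusted p under 0.05, against 3.34% and 2.95% of all genes. None of the 8 passed the adjusted threshold. The lower ones were Arid1a, the alternative to Arid1b in the same complex (LFC of -0.22 ± 0.07 in CA3 PNs on ChN and -0.26 ± 0.08 in DGCs on ChP), Smarcc2 and Smarcd3 in 1 comparison each, and Brd9 and Bicra in 2 each. The median LFC of the list lay between -0.06 and 0.01.

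Scaf8 was higher in all 6 comparisons with LFCs of 0.42 to 0.62. In CA3 PNs on ChN it had 60.8 to 78.3 CPM (median 67.1) in 2N and 96.5 to 111 (median 97.4) in Ts, and in DGCs on ChN 89.5 to 130 (median 94.8) and 137 to 166 (median 148). The groups did not overlap in either population. In CA1 PNs on ChN the Ts libraries had 93.4, 111, 117, 119 and 125 CPM against 55.3 to 96.2 in 2N, and 4 of the 5 lay above all 2N libraries. The adjusted p was 0.000268 in CA3 PNs on ChN, 0.00043 in DGCs on ChN and 9.62e-05 in DGCs on ChP. Scaf8 overlaps the lncRNA Gm49797 on the same strand, so reads in the overlap could be assigned to either, and Gm49797 was itself higher in 5 of 6 comparisons. Among the related factors Scaf1, Scaf4 and Scaf11, Scaf4 was higher in all 6 comparisons (LFCs of 0.36 to 0.59) and the others in none. Scaf4 lies on the triplicated Mmu16 segment.

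Gtf2h5 was higher in all 6 comparisons with LFCs of 0.52 to 0.71, each interval holding 0.585. The Ts libraries of the CA1 PNs had on ChN 53.3, 60.2, 70.5, 72.3 and 75.6 CPM and the 2N libraries 34.6 to 48.8 (median 38.4). On ChP the CA1 ranges were 24.6 to 44.4 in 2N and 45.1 to 74.4 in Ts. In CA3 PNs they were 26.3 to 41.0 and 49.2 to 63.6 on ChN. The groups did not overlap in CA1 PNs on either diet or in CA3 PNs on either diet, while in DGCs 4 of 6 Ts libraries on ChN and 8 of 9 on ChP lay above all 2N libraries. Of 54 tests of the 9 other TFIIH genes, 3 were higher (Gtf2h2, Cdk7 and Ccnh) and 1 was lower (Gtf2h1, LFC of -0.53 ± 0.14 in CA3 PNs on ChN), none past the adjusted threshold. These are 5.56% and 1.85% of the tests, near the 3.34% and 2.95% of all genes.

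Tfb1m had few counts and was called in 1 comparison, in CA1 PNs on ChN (LFC of 1.47 ± 0.42, adjusted p = 1.0). In the other 5 comparisons its LFCs were 0.15 to 0.60 with SEs near 0.5. The interval in CA3 PNs on ChN, -0.76 to 1.07, held both 0 and 0.585.

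**Figure D2:**
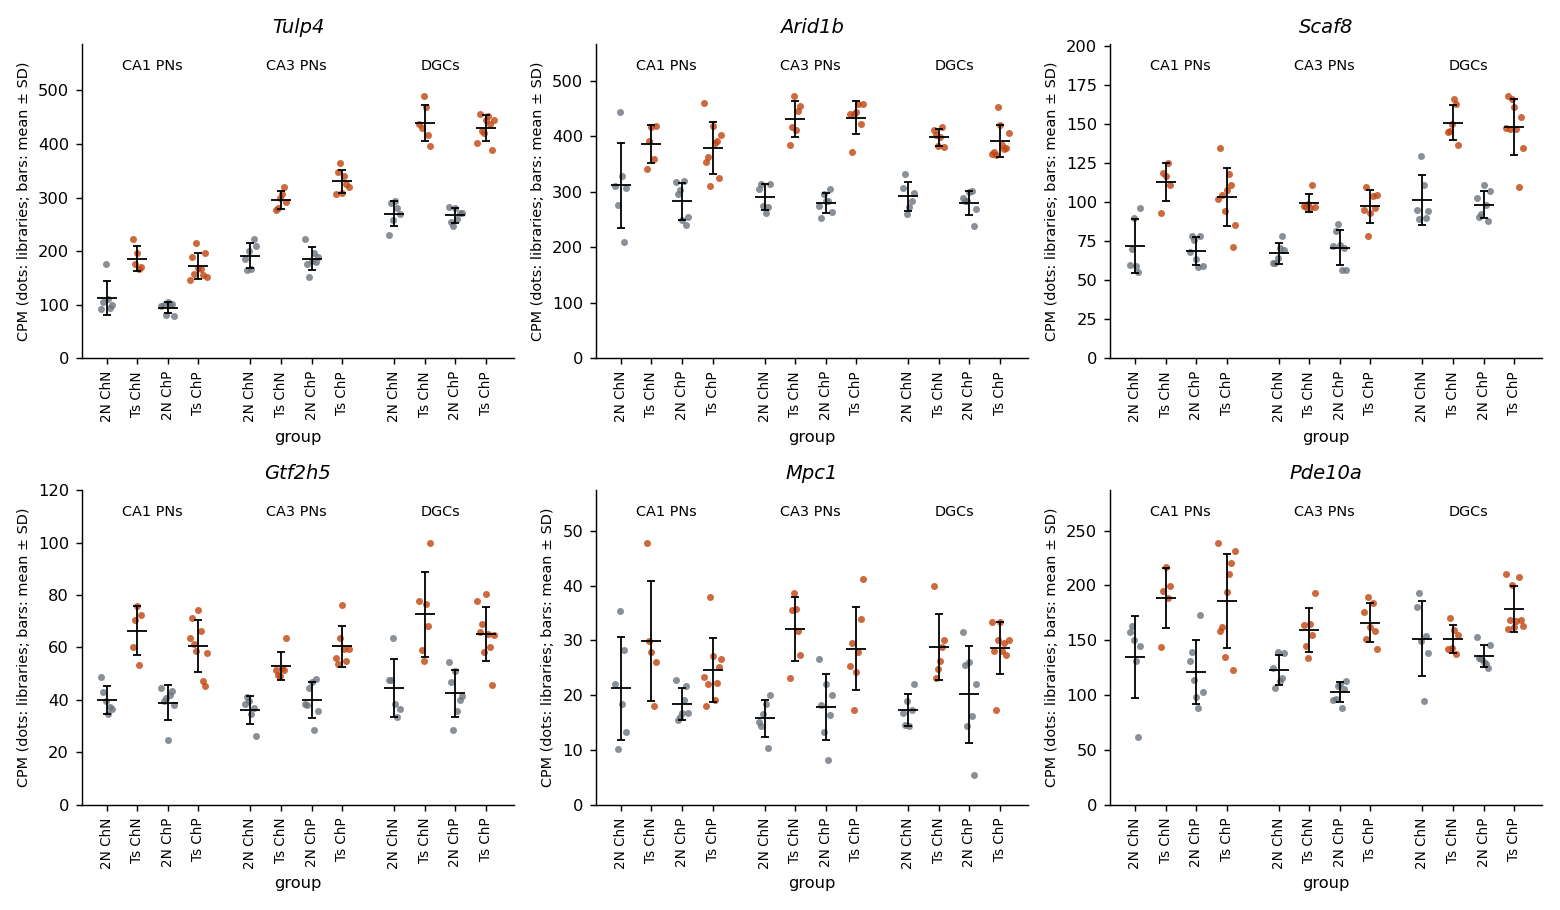
CPM (y axis, from 0) of Tulp4, Arid1b, Scaf8, Gtf2h5, Mpc1 and Pde10a in every library (points), by population and group (x axis), with the mean ± SD of each group. Ts libraries (orange) of Tulp4 lie above all 2N libraries (grey) in every pair of groups but CA1 ChN, and those of Pde10a lie within the 2N range in DGCs on ChN.

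The mitochondrial members were Mpc1, a subunit of the carrier that brings pyruvate into mitochondria, Serac1, which acts in phosphatidylglycerol remodelling, Tmem242, which takes part in the assembly of the ATP synthase, and Tfb1m. Between 2 and 3 of these 4 were higher in each comparison, against 57.2% of the tests of all members and 3.34% of those of all genes.

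Mpc1 had its largest LFC in CA3 PNs on ChN. There it had 10.4 to 20.1 CPM (median 15.7) in 2N and 23.2 to 38.7 (median 33.7) in Ts, with no overlap. The LFC was 1.06 ± 0.17 (adjusted p = 0.000174), and its interval, 0.71 to 1.41, lay above 0.585. In CA3 PNs on ChP the LFC was 0.60 ± 0.19, and the ranges, 8.13 to 26.6 and 17.3 to 41.2, overlapped. In DGCs on ChN the ranges were 14.3 to 22.0 and 23.1 to 39.9, with no overlap and an LFC of 0.74 ± 0.21. On ChP the DGC ranges overlapped, the lowest 2N library had 5.34 CPM, and the LFC was 0.35 ± 0.19 (interval -0.03 to 0.74).

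The Ts libraries of CA1 PNs on ChN had 18.1, 26.1, 27.8, 29.9 and 47.9 CPM of Mpc1 and the 2N libraries 10.2 to 35.4, with an LFC of 0.46 ± 0.30. Without mouse 17-154, whose library was the highest of the 2N group, Mpc1 was a DEG with an LFC of 0.71 ± 0.29 (adjusted p = 1.0), and without the libraries with CA3 markers above 100 CPM it was one with 0.70 ± 0.27 (adjusted p = 0.551). On ChP it was a DEG with an LFC of 0.45 ± 0.18 (adjusted p = 1.0), a call that was lost without the libraries with CA3 markers above CA1 markers (0.33 ± 0.19, adjusted p = 0.98). Of 69 tests of Mpc2, the pyruvate dehydrogenase subunits and their kinases and phosphatases, 0 were higher and 2 were lower at an unadjusted p under 0.05 by edgeR (2.9%, against 2.95% of all genes), both of the phosphatase Pdp1 (-0.26 ± 0.11 in CA3 PNs on ChN and -0.33 ± 0.10 in DGCs on ChP), and none passed the adjusted threshold.

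Serac1 was higher in all 6 comparisons. Its LFCs were 0.85 ± 0.17 and 0.87 ± 0.16 in DGCs on ChN and ChP (adjusted p = 0.00154 and 0.000268) and 0.48 to 0.58 in CA1 PNs and CA3 PNs. In CA1 PNs on ChP the call was lost without the libraries with CA3 markers above 100 CPM (0.30 ± 0.22, adjusted p = 0.906), and on ChN the same omission gave 0.88 ± 0.26. In DGCs it had 21.3 to 28.9 CPM in 2N and 33.8 to 53.9 in Ts on ChN, and 21.4 to 35.7 and 36.8 to 60.2 on ChP. The DGC groups did not overlap on either diet, whereas in CA1 PNs and CA3 PNs they overlapped on both. Its start lies on the strand opposite to that of Gtf2h5, whose LFCs in DGCs were 0.67 ± 0.15 and 0.56 ± 0.14. Tmem242 was higher in 4 comparisons, with LFCs of 0.24 to 0.94 over all 6.

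The signalling enzymes were Pde10a, which breaks down cyclic nucleotides, Rps6ka2, a ribosomal S6 kinase activated by ERK, Zdhhc14, a palmitoyltransferase that acts on membrane and channel proteins, and Tagap1, a GTPase activating protein. These 4 were higher in CA3 PNs on both diets. In that population 82.1% (ChN) and 60% (ChP) of all tested members were higher, against 4.9% and 2.67% of all genes. A further signalling enzyme, Tagap, was tested in CA1 PNs and CA3 PNs on ChP and was called in neither (1.03 ± 0.83 and 0.74 ± 0.68).

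Pde10a in CA3 PNs on ChP had 88.1 to 113 CPM (median 105) in 2N and 142 to 189 (median 162) in Ts, with no overlap and an LFC of 0.69 ± 0.09 (adjusted p = 1.15e-06). On ChN the CA3 ranges were 106 to 139 and 134 to 193, and the LFC was 0.39 ± 0.09 (adjusted p = 0.0202), with an interval of 0.21 to 0.57 that lay below 0.585.

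In DGCs on ChN Pde10a had 94.7, 138, 149, 154, 180 and 193 CPM in the 2N libraries and 137, 142, 143, 155, 159 and 170 in the Ts libraries. No Ts library lay above the highest 2N library. The LFC was -0.01 ± 0.12, with an interval of -0.24 to 0.23 that lay below 0.585. On ChP the DGC ranges were 125 to 153 in 2N and 160 to 210 in Ts, which did not overlap, and the LFC was 0.37 ± 0.09 (adjusted p = 0.0194).

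For Pde10a in CA1 PNs on ChN the Ts libraries had 144, 188, 195, 199 and 217 CPM. The 2N libraries had 62.0 to 163 (median 148), of which the lowest was that of mouse 17-21, whose CA3 markers were above its CA1 markers. The LFC was 0.45 ± 0.19 on ChN and 0.62 ± 0.15 on ChP. Of 90 tests of 17 other cyclic nucleotide phosphodiesterases, 4 were higher (4.44%) and 3 were lower (3.33%), near the 3.34% and 2.95% of all genes. Pde1a, a calmodulin-dependent phosphodiesterase, was higher in CA3 PNs on ChN (0.37 ± 0.09, adjusted p = 0.0224), and no other test of the list passed the adjusted threshold.

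Rps6ka2 was higher in 5 comparisons, with LFCs of 0.49 to 0.75 in these and 0.39 ± 0.28 in CA1 PNs on ChN, where it was a DEG without mouse 17-154 (0.60 ± 0.28, adjusted p = 1.0) and without the libraries with CA3 markers above 100 CPM (0.74 ± 0.30, adjusted p = 0.584). In DGCs, where it was most abundant, it had 47.4 to 84.2 CPM in 2N and 76.4 to 104 in Ts on ChN (adjusted p = 0.0111). Zdhhc14 was higher in 5 comparisons. In CA3 PNs it had 57.9 to 74.3 CPM in 2N and 82.1 to 109 in Ts on ChN, and 58.6 to 89.5 and 92.1 to 111 on ChP, with no overlap. In CA1 PNs on ChN the LFC was 0.28 ± 0.32 and the 2N libraries ran from 16.9 to 94.0. Tagap1 was higher in CA3 PNs (0.94 ± 0.24 on ChN and 0.51 ± 0.22 on ChP), and had LFCs of 0.14 to 0.42 in the other 4 comparisons, with intervals that held both 0 and 0.585. Its genotype difference was not called as differing between populations on ChN. Of its 50-base windows 54.5% also occur in other genes, mostly in Tagap.

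The membrane and cytoskeleton members tested in all 6 comparisons were Ezr, which links membranes to actin, Snx9, a sorting nexin of endocytosis, Sft2d1, a Golgi transport protein, and Tmem181a. Ezr was higher in 5 comparisons with LFCs of 0.58 to 0.83, and was not called in CA1 PNs on ChN (0.22 ± 0.21). Ezr in CA3 PNs on ChN had 6.93 to 15.7 CPM in 2N and 14.7 to 18.4 in Ts, with a small overlap. None of 24 tests of Rdx, Msn, Nf2 and Nherf1, the relatives and partners of ezrin, passed an unadjusted p under 0.05 by edgeR. Of the tests of all genes 3.34% were higher and 2.95% were lower.

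Sft2d1 was higher in 5 comparisons, with LFCs up to 1.26 ± 0.38 in CA3 PNs on ChP and 0.20 ± 0.36 in CA1 PNs on ChP. In CA3 PNs on ChN it had 2.08 to 5.09 CPM in 2N and 4.95 to 12.3 in Ts. Snx9 was higher in 4 comparisons, among them CA3 PNs on ChN (9.29 to 12.4 CPM in 2N and 12.9 to 18.9 in Ts, with no overlap), and its LFC was -0.03 ± 0.49 in CA1 PNs on ChN (0.75 ± 0.55 without the libraries with CA3 markers above 100 CPM). Tmem181a was higher in 3 comparisons. In DGCs on ChN it had 20.6 to 33.5 CPM in 2N and 36.7 to 58.7 in Ts, with no overlap (LFC of 0.71 ± 0.17, adjusted p = 0.0184), while on ChP the ranges were 23.8 to 57.1 and 33.6 to 51.5 (LFC of 0.16 ± 0.16, interval -0.15 to 0.47). Of its 50-base windows, 34.1% also occur in other genes, mostly in Gm64463.

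The members of the cilium and centrosome were Cep43, Rsph3a and Rsph3b. Cep43, a centrosomal protein, was higher in 2 comparisons (LFCs of 0.32 to 0.54 over all 6). Rsph3a and Rsph3b, related genes for a radial spoke protein, share 53.5% and 58.1% of their windows with other genes, so their counts are uncertain. Rsph3a was higher in 3 of 5 comparisons. Rsph3b was higher in CA3 PNs on ChN (0.00 to 2.54 CPM in 2N and 1.97 to 8.91 in Ts, LFC of 1.80 ± 0.49) and had LFCs of 0.00 to 0.38 in the others. Fndc1, a fibronectin domain protein, was higher in 3 comparisons (0.71 ± 0.22 and 0.84 ± 0.23 in DGCs on ChN and ChP).

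Among members that are not protein-coding, 16 of 45 tests were higher (35.6%), against 83 of 128 for protein-coding members (64.8%) and 3.34% over all genes. The median LFC over the comparisons lay between 0.35 and 0.69 for members that are not protein-coding, and between 0.42 and 0.63 for the others. Whether the gap in calls goes with lower counts was not tested. The call of Rnaset2a, described below, is among the 83. Gm21926, a transcribed processed pseudogene, was higher in 5 comparisons (LFCs of 0.54 to 0.77), but all of its windows also occur in other genes. The lncRNA Gm64463 was higher in 4 (adjusted p = 0.0292 in CA3 PNs on ChN), and shares 31.3% of its windows with other genes. Tmem181c-ps, a pseudogene with 75.8% shared windows, was the member that was lower in Ts. In CA1 PNs on ChN it had 1.22 to 5.64 CPM in 2N and 0.772 to 2.01 in Ts, and an LFC of -1.09 ± 0.52 (adjusted p = 1.0). The call was lost with DESeq2, limma-voom, library totals, all 4 groups in 1 fit, no filter and the leaving out of libraries with CA3 markers, and in the other 4 comparisons its LFC was -0.28 to 0.60. Of the copies of Dynlt1, a dynein light chain, only Dynlt1a was tested, in 2 comparisons (0.36 ± 0.52 and 0.29 ± 0.49). Rnaset2a was tested in CA1 PNs on ChP alone, where it had 0.558 to 3.63 CPM in the 9 Ts libraries and a count in 1 of the 7 2N libraries (1.68 CPM). It passed the filter through the Ts group, so its call and fitted value are not read here as a difference.

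At the distal end of the window, the last tested members were Sft2d1, Prr18 and Pde10a. Sft2d1 and Pde10a were higher in 5 of 6 comparisons each. Prr18 had LFCs of 0.61 to 1.24 in the 5 comparisons in which it was tested and was called in 1, CA3 PNs on ChN. Pde10a starts at 8744204 on Mmu17, ends at 9205482 and crosses the end of the window. Its canonical promoter, given above, lies within the window. Beyond it, 1700010I14Rik and Gm34883 were tested in 2 comparisons each, with SEs of 0.62 to 0.71. Qki, an RNA-binding protein, was called in none of the 6 comparisons and had LFCs of -0.13 to 0.17 with SEs of 0.10 to 0.15. The median LFC of the flank genes was -0.02 to 0.07 over the 6 comparisons.

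**Figure D3:**
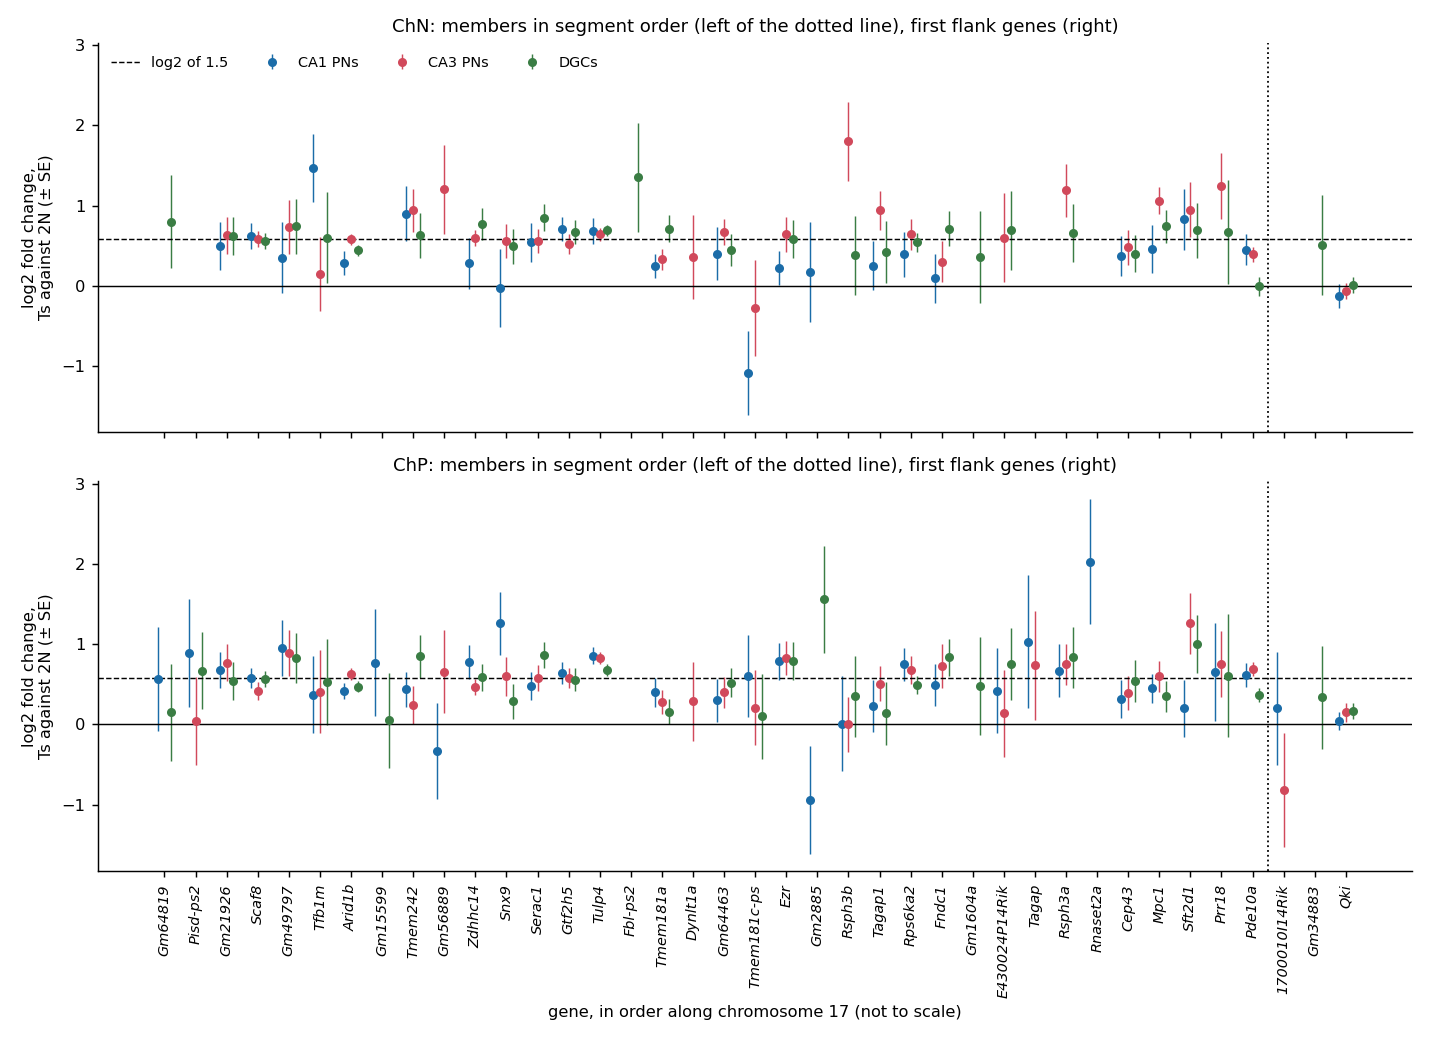
Log2 fold change of Ts against 2N (y axis, ± SE) for the 36 tested members in their order along Mmu17 (x axis, left of the dotted line) and for the first 3 tested flank genes, up to Qki (right), on ChN (upper panel) and ChP (lower panel), coloured by population. The dashed line is the log2 of 1.5. Most members lie near the dashed line, and Qki, beyond the end of the segment, lies near 0.

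Levels between genes were compared per transcript length, as the TPM of the 2N ChN libraries. Tulp4 and Arid1b had the highest mean TPM in all 3 populations (41.3 and 50.3 in CA1 PNs, 80.7 and 48.4 in CA3 PNs, 118 and 76.0 in DGCs). Gtf2h5, Mpc1 and Pde10a followed, with means of 23.4 to 37.5 TPM. The order among them is within the spread of the libraries: in DGCs Gtf2h5 had 37.5 ± 6.56 TPM (SD), Mpc1 30.5 ± 5.54 and Pde10a 29.7 ± 5.95. In CA3 PNs Arid1b had 20.2 to 70.8 TPM in the 6 2N ChN libraries, and 261 to 314 CPM.

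**Figure D4:**
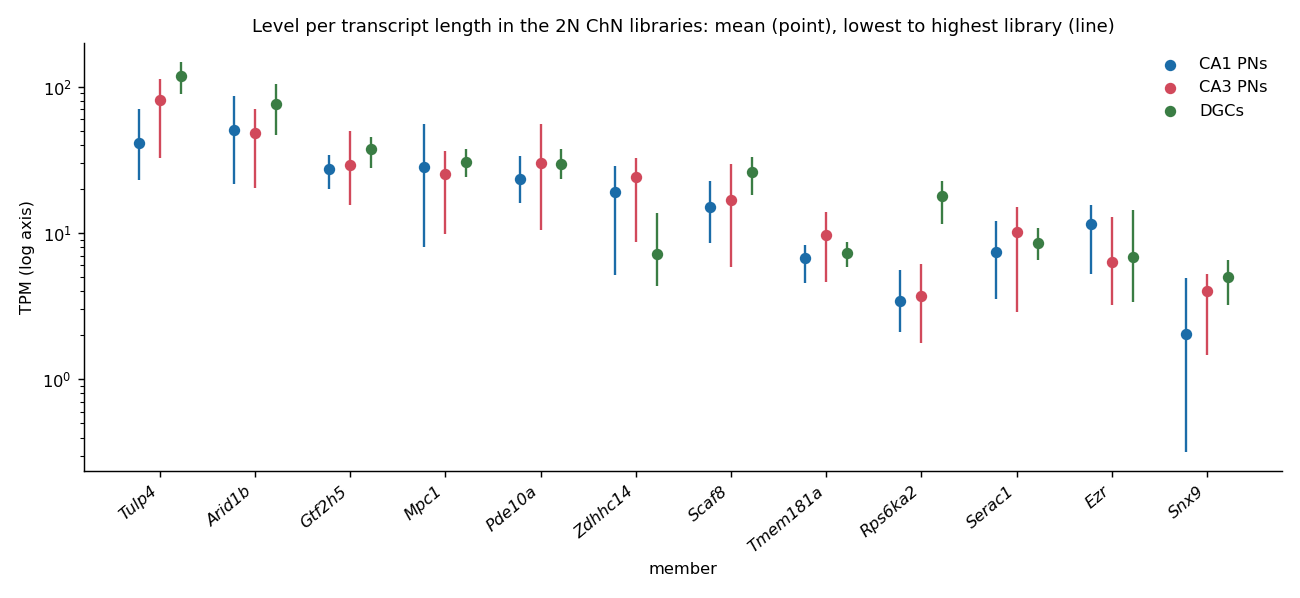
TPM (y axis, log scale) of 12 members (x axis) in the 2N ChN libraries of each population. Points are means over 6 libraries and lines run from the lowest to the highest library. Tulp4 has its highest mean in DGCs (118 TPM), Rps6ka2 is higher in DGCs (18 TPM) than in CA1 PNs (3.42) and CA3 PNs (3.71), and Zdhhc14 is lower in DGCs (7.14).

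Levels were also compared between populations of 2N mice on ChN. At an adjusted p under 0.05, 3 of 34 tested members differed between CA1 PNs and CA3 PNs (8.82%, against 23.3% of all genes), 6 between CA1 PNs and DGCs (17.6%, against 34.3%) and 5 between CA3 PNs and DGCs (14.7%, against 43.7%). Rps6ka2 was higher in DGCs than in CA1 PNs (log2 difference CA1 minus DG of -1.78 ± 0.22) and CA3 PNs (-1.70 ± 0.20). Zdhhc14 was lower in DGCs than in CA1 PNs (1.85 ± 0.29) and CA3 PNs (1.89 ± 0.28). Tulp4 was lowest in CA1 PNs (-0.81 ± 0.13 against CA3 PNs and -1.11 ± 0.13 against DGCs) and stood below the DGCs in CA3 PNs (-0.30 ± 0.12). Snx9 was lower in CA1 PNs than in both others (-1.11 ± 0.33 and -1.36 ± 0.34), and Ezr higher (0.85 ± 0.24 and 0.68 ± 0.26). Scaf8 was higher in DGCs than in the others by 0.36 and 0.40, and Tmem181a was higher in CA3 PNs than in DGCs (0.66 ± 0.16).

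Without the CA1 libraries with CA3 markers above 100 CPM, 5 members differed between CA1 PNs and CA3 PNs, with Serac1 and Rsph3b added, and Snx9 stood at -2.14 ± 0.42. The call of Ezr between CA1 PNs and DGCs was lost without mouse 17-154 (0.56 ± 0.27, adjusted p = 0.12) and without the libraries with CA3 markers above 100 CPM (0.64 ± 0.29, adjusted p = 0.0839). Without those with CA3 markers above CA1 markers, the call of Scaf8 between CA1 PNs and DGCs was lost (-0.30 ± 0.13, adjusted p = 0.0798) and Arid1b was called (0.32 ± 0.10, adjusted p = 0.007). With the mouse as a block, the members called were the same in all 3 comparisons.

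Whether the genotype difference of a member itself differed between populations was tested over all libraries on ChN. Of 43 members tested, 1 differed between CA1 PNs and CA3 PNs (against 4.22% of all genes), 3 between CA1 PNs and DGCs (against 5.51%) and 0 between CA3 PNs and DGCs (against 5.18%), at an unadjusted p under 0.05 by edgeR. None passed the adjusted threshold. The genotype difference of Arid1b was smaller in CA1 PNs than in CA3 PNs by 0.28 ± 0.14 on the log2 scale (CA1 minus CA3 of -0.28, adjusted p = 1.0), and this call was lost without mouse 17-154 (-0.15 ± 0.13, adjusted p = 1.0). With the mouse as a block, 2 members differed between CA1 PNs and CA3 PNs (Mpc1, -0.61 ± 0.30, and Tfb1m, 1.66 ± 0.77) and 1 between CA1 PNs and DGCs. The latter was Pde10a, whose genotype difference was larger in CA1 PNs by 0.46 ± 0.22 (adjusted p = 0.883), by 0.50 ± 0.21 with the block (adjusted p = 1.0) and by 0.50 ± 0.22 without mouse 17-154 (adjusted p = 0.881). The other calls between CA1 PNs and DGCs were Tmem181a (-0.46 ± 0.22) and Gm4828, a processed pseudogene with 35 expected counts in all libraries together, which are too few for its fitted value to be read as a fold change. For Tulp4 the differences were 0.06 ± 0.15 (CA1 minus CA3), -0.01 ± 0.16 (CA1 minus DG) and -0.07 ± 0.15 (CA3 minus DG).

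Few members were called as differing between maternal diets, at about the rate of all genes. Between ChP and ChN, 2 of 37 members differed in CA1 PNs of 2N mice and 1 in those of Ts mice (against 3.27% and 3.05% of all genes), 2 and 1 of 40 in CA3 PNs (against 4.9% and 4.19%) and 2 and 1 of 39 in DGCs (against 5.82% and 3.81%), at an unadjusted p under 0.05 by edgeR in either direction. None passed the adjusted threshold, and the smallest adjusted p was 0.831. The genotype difference differed between diets for 2 members in each population (against 3.22%, 4.87% and 3.97% of all genes), again with none past the adjusted threshold.

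Pde10a was the member called in these tests in more than 1 population, with no call past the adjusted threshold. In CA3 PNs it was lower on ChP than on ChN in 2N mice (-0.25 ± 0.09, adjusted p = 0.924), with 106 to 139 CPM on ChN and 88.1 to 113 on ChP. In DGCs it was higher on ChP in Ts mice (0.23 ± 0.09, adjusted p = 0.999), with 137 to 170 CPM on ChN and 160 to 210 on ChP. The genotype difference of Pde10a was larger on ChP by 0.31 ± 0.13 in CA3 PNs and by 0.38 ± 0.14 in DGCs. In CA1 PNs Pde10a passed no test of diet. The 2 populations were captured from largely the same mice and are not independent. The genotype differences of Tulp4 in CA3 PNs (0.64 on ChN and 0.83 on ChP) differed between diets by 0.20 ± 0.11 (adjusted p = 0.996), and its diet difference in Ts mice was 0.16 ± 0.08.

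Markers of other cells moved with genotype in some comparisons. In CA3 PNs on ChN, 4 of 6 inhibitory neuron markers were lower in Ts (Gad1, Gad2, Slc32a1 and Sst), against 4.3% of all genes. The sum of the 6 was 128 to 325 CPM in 2N and 115 to 155 in Ts. In the same comparison 3 of 5 astrocyte markers were lower (sum of 140 to 235 CPM in 2N and 123 to 179 in Ts). In DGCs on ChP 3 of 4 tested inhibitory markers were higher in Ts, against 3.95% of all genes. In CA3 PNs on ChP 1 of 5 tested inhibitory markers was lower and no astrocyte marker was called. No inhibitory marker was called in CA1 PNs on either diet or in DGCs on ChN. The median LFC of the members was 0.62 in CA3 PNs on ChN and 0.54 in DGCs on ChP. The part of these shifts in the members' differences was not tested.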

How the data were processed

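The RNA of LCM captures of the 3 populations was sequenced by the authors after library preparation with the SMARTer Stranded Total RNA-Seq Pico v3 kit. Reads were checked with FastQC 0.11.9 and Picard 2.26.2, trimmed with Trimmomatic 0.39, aligned to GRCm39 with STAR and counted per gene with RSEM. The annotation release and the strand setting of the counting are not given in the sources used here, so overlapping and antisense genes are uncertain. The tables deposited by the authors give, for each gene, RSEM's expected count and, in separate columns, its TPM. Gene positions, biotypes and sequences were taken from Gencode vM39. The members and gene lists were chosen with earlier results of these data known.

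Expected counts were rounded to whole numbers and scaled by TMM. Ts was compared with 2N within each population and diet with the quasi-likelihood test of edgeR 4.0.16 (R 4.3.3), over genes with more than 0.1 CPM in at least 10 libraries, and p-values were adjusted by the Benjamini-Hochberg method over all genes tested. Diet and its interaction with genotype were fitted over the 4 groups of a population. Levels between populations were fitted over the 2N ChN libraries, and genotype differences between populations over all ChN libraries. The CA3 library of mouse 15-145 was used as 2N, as its other libraries are labelled. CPM values are expected counts relative to the TMM-scaled library size, and LFCs are given ± SE. TPM was used only to compare levels between genes. Library totals ran from 358355 to 4744036 expected counts, and 36 of the 77 members were tested in at least 1 genotype comparison. Each library comes from 1 mouse, and within a population the p-values cover the spread between mice. The fits between populations treated libraries of the same mouse as separate, and a block for the mouse was an alternative. The scripts were tested on simulated data.

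The text names Arid1b, Tulp4, Scaf8, Gtf2h5 and Pde10a, each member with an adjusted p under 0.05 in any genotype comparison or an unadjusted p under 0.05 in at least 3 of the 6, each member lower in Ts, the last 3 tested members before the distal end and members with close copies. Other genes were named after their values were seen. The flank runs from the end of the window to 15400000 on Mmu17, and the Mmu16 segment starts at 84300000. A 50-base window of a gene's transcripts was called shared when it occurred in a transcript of another gene. Alternatives were DESeq2 1.42.0, limma-voom (limma 3.58.1), scaling by library totals, no filter, edgeR's filterByExpr (minimum count of 10), all 4 groups in 1 fit, each mouse left out in turn and a block for the mouse. The populations share mice. Deviations from the group means correlated between libraries of the same mouse with a median r across 7890 genes of 0.105 (0.005 to 0.236, 78 pairs), against -0.015 (-0.155 to 0.158, 480 pairs) between different mice. Python 3.11.15 with pandas 2.3.3, numpy 2.4.6, scipy 1.17.1 and matplotlib 3.10.9 was used for the sequences, summaries and figures. The values of some genes of the pathway lists and the flank are not reported here.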

Additional observations from a re-analysis of the deposited data

Results flagged for a closer look

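Each group of libraries was checked for a value far from the others, in the CPM of the 11 members that passed the adjusted threshold in any genotype comparison and in the mean shift of the members. Of 144 checks 10 found one, all in the CPM of a member, where chance gives about 1 in 20. In CA1 PNs these were Tulp4 in mouse 17-154 of 2N ChN (176 CPM, with the others at 92.7 to 110), Pde10a in mouse 17-21 of 2N ChN (62.0 CPM, others 131 to 163), Gtf2h5 in mouse 15-334 of 2N ChP (24.6 CPM, others 37.9 to 44.4) and Gm64463 in mouse 14-125 of 2N ChP (41.0 CPM, others 13.1 to 23.9). In Ts ChP they were Tmem181a in mouse 15-245 (54.4 CPM, others 32.5 to 42.5) and Mpc1 in mouse 15-199 (38.0 CPM, others 18.1 to 27.2). In CA3 PNs they were Scaf8 in mouse 17-173 of Ts ChN (111 CPM, others 96.5 to 99.0), Gtf2h5 in mouse 17-192 of Ts ChN (63.6 CPM, others 49.2 to 52.0) and Arid1b in mouse 15-140 of Ts ChP (372 CPM, others 422 to 459). In DGCs it was Mpc1 in mouse 15-198 of Ts ChP (17.2 CPM, others 27.4 to 33.4). Mice 17-154, 17-21, 15-334 and 15-199 are among those whose CA1 library held CA3 markers above 100 CPM, and the part of these markers in the values was not tested.

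The genotype difference differed between diets at an unadjusted p under 0.05 by edgeR for Gm56889 (-2.93 ± 1.08) and Tmem181c-ps (1.67 ± 0.81) in CA1 PNs, for Rsph3b (-1.79 ± 0.68) and Pde10a (0.31 ± 0.13) in CA3 PNs, and for Tmem181a (-0.55 ± 0.23) and Pde10a (0.38 ± 0.14) in DGCs, given as ChP minus ChN on the log2 scale. Between populations on ChN it differed for Arid1b (CA1 minus CA3, -0.28 ± 0.14), Gm4828 (CA1 minus DG, 4.31 ± 1.96, from 35 counts in all), Tmem181a (CA1 minus DG, -0.46 ± 0.22) and Pde10a (CA1 minus DG, 0.46 ± 0.22). None of these differences passed an adjusted p under 0.05 by edgeR.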

How the results depend on the processing

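The counts of members higher in Ts stayed within 1.5 times the main count under all alternatives in 5 of the 6 genotype comparisons. In CA1 PNs on ChN, where 8 were higher, 14 were higher with no filter. The number past the adjusted threshold in CA1 PNs on ChP was 4 with DESeq2, 2 with no filter and 2 with all 4 groups in 1 fit, in place of 1. It was 1 with no filter in CA1 PNs on ChN (in place of 0), 8 with no filter in CA3 PNs on ChP (in place of 5) and 5 with limma-voom in DGCs on ChN (in place of 8). Of the named genes' values under the alternatives other than leaving out a mouse, 464 kept direction and side of the threshold, 14 lost a call, 12 gained one and 3 reversed. The last were Pde10a in DGCs on ChN (-0.01, against 0.00 with all 4 groups in 1 fit and 0.03 with limma-voom) and Tmem181c-ps in CA3 PNs on ChN (-0.28, against 0.50 with limma-voom). The cause was not tested.

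Leaving out 1 mouse gave 6 to 12 higher members in CA1 PNs on ChN (the highest without mouse 17-154), 19 to 22 in CA3 PNs and 13 to 20 in DGCs on ChN, and 13 to 16, 16 to 20 and 15 to 18 on ChP. The LFC crossed 0 for Pde10a in DGCs on ChN (-0.12 to 0.08) and for Tmem181c-ps in CA3 PNs (-0.04 to 0.57) and DGCs (-0.19 to 0.30) on ChP. The diet counts ran from 2 to 6 (2N) and 1 to 2 (Ts) in CA1 PNs, 1 to 3 and 0 to 2 in CA3 PNs, and 0 to 3 and 1 to 3 in DGCs, and the interaction counts from 1 to 4, 2 to 4 and 1 to 3. The population counts ran from 2 to 3, 4 to 6 and 4 to 5, and the counts of differing genotype differences from 0 to 4 (CA1 minus CA3), 0 to 3 (CA1 minus DG) and 0 to 2 (CA3 minus DG).

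Diet in CA1 PNs of 2N mice gave 1 member with filterByExpr, and of Ts mice 0. The interaction in CA1 PNs gave 0 with filterByExpr and 1 with library totals. Diet in CA3 PNs gave 1 in 2N mice with filterByExpr and 0 in Ts mice with library totals, and diet in DGCs of 2N mice gave 1 with DESeq2. Differing genotype differences numbered 0 with library totals (CA1 minus CA3) and 1 with DESeq2 (CA1 minus DG).

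With the mouse as a replicate block, 2 genotype differences differed between CA1 PNs and CA3 PNs and 1 between CA1 PNs and DGCs, in place of 1 and 3, and the block changed no other count by more than 1.5 times. Within a population each mouse gave 1 library, so the genotype and diet comparisons have no such pairing.

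Leaving out CA1 libraries by their CA3 markers or mouse 17-154 was chosen after seeing the data. Without libraries with CA3 markers above CA1 markers, diet gave 4 members in 2N and 2 in Ts mice, the interaction 4, and CA1 minus CA3 of the genotype difference 2. Without those above 100 CPM, diet in Ts mice gave 2, the interaction 1, CA1 minus CA3 of the level 5 and of the genotype difference 0. Without mouse 17-154 the last was 0.

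The median SE of the LFC in DGCs on ChN was 0.20 for members of at least 10 CPM and 0.49 below that level.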

Other observations

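The 21 members tested in all 6 genotype comparisons were followed within mice, as the deviation from the group mean in CA3 PNs against that in DGCs of the same 26 mice. The largest correlation was that of Tmem181a (Pearson's r = 0.50, permutation p = 0.00809, 0.17 after adjustment over the 21 members; Spearman's rho = 0.44, permutation p = 0.0259, 0.272 after adjustment), r was 0.50 without the 2 mice farthest from the median in CA3 PNs, and no member passed the adjusted threshold. Gm64463 was highest among the 2N ChP libraries in mouse 14-125 in all 3 populations (41.0, 38.8 and 39.5 CPM in CA1 PNs, CA3 PNs and DGCs) and lowest among the Ts ChP libraries in mouse 15-36 (5.9, 24.1 and 24.2 CPM), a pattern picked after its values were seen.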
